A study of Mus musculus with 7 samples.

Results

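The genes described here encode the translation initiation factors of the mouse, the proteins that bring a ribosome, the initiator tRNA and an mRNA together. They were chosen by name, as the rows of the count table whose symbol starts with Eif and a digit from 1 to 6, together with Mcts1, Mcts2 and Denr, and without rows named as pseudogenes. This gave 62 of the 34592 genes in the table. Of these, 60 were among the 17389 genes abundant enough to be tested. The other 2 were Eif4e1b, with 6 to 17 reads a tumor, and Eif2c5, with at most 1 read. The symbols Eif2c1 to Eif2c5 are older names of the Argonaute genes, whose products bind small RNAs and are not initiation factors. They are kept because the name rule takes them, and counts are also given without them.

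In eukaryotes, eIF2 carries the initiator tRNA to the small ribosomal subunit, eIF1 and eIF1A watch over the choice of the start codon, and eIF3 is the scaffold that holds the complex together. The eIF4F complex (the cap-binding protein eIF4E, the scaffold eIF4G and the RNA helicase eIF4A) loads the mRNA, and the eIF4E-binding proteins block it when mTOR signaling is low. Medulloblastomas of Group 3 (G3 MB) often have high MYC, and genes of the ribosome and of translation are classical MYC targets.

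All 7 tumors came from 1 mouse G3 MB tumorsphere line, # 19568, made from cerebellar granule neuron progenitors of Trp53-/-; Cdkn2c-/- mice at postnatal day 7 that were infected with a Myc-IRES-GFP retrovirus. The tumorspheres received a lentivirus (pCDH-EF1) with human WDR11 (WDR11OE, 4 tumors) or served as controls (3 tumors), which the labels list with no treatment and the study's methods describe as carrying the empty vector. Unsorted cells were implanted into the cortices of CD-1 nu/nu mice aged 6 to 8 weeks, so a tumor holds transduced and untransduced tumor cells and cells of the host. In such bulk tissue, fewer cells of a type and less RNA per cell cannot be told apart. A single line limits the findings to that line, and the replicate numbers of the controls are names only.

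Total counts ranged from 33417175 to 41397427 in the controls and from 32116095 to 87141305 in the WDR11OE tumors. Library numbers of the WDR11OE tumors and of the controls come from different series, so the series and the condition cannot be told apart. The mouse Wdr11 gene, the only Wdr11 row, was at 58.3 to 59.3 CPM in controls and at 61.0 to 68.9 CPM in WDR11OE tumors, with a log2 fold change of 0.16 (SE 0.06, adjusted p = 0.0910 from edgeR, where SE is the standard error of the fit). Of the markers of the granule lineage, Atoh1 was at 0 in every tumor and Barhl1 had 1 read in all. Others were detected in every tumor, with Pax6 at 17.2 to 31.1 CPM, Meis1 at 14.5 to 36.5 CPM, Zic1 at 1.76 to 16.8 CPM and Zic2 at 2.57 to 7.32 CPM. Npr3 was at 3.92 to 9.84 CPM, and Neurod1 was low at 0.0237 to 2.54 CPM. From the same list, Top2a was higher in WDR11OE tumors (log2 fold change 0.70, adjusted p = 0.00594 from edgeR) and Mki67 did not pass (-0.30, adjusted p = 0.0949). Myc was at 812 to 1108 CPM in controls and at 278 to 431 CPM in WDR11OE tumors. The summed level of 9 skeletal muscle markers was 3.40 to 5.86 CPM in controls and 47.2 to 139 CPM in WDR11OE tumors, and that of 7 endothelial markers was 155 to 196 CPM against 99.3 to 132 CPM. The part of these tissues in the results on translation genes was not tested. The summed levels of the neuron, astrocyte, oligodendrocyte, microglia and red blood cell markers overlapped between the groups.

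As a whole, the initiation factor genes were abundant and changed in both directions. Their median of the average log2 CPM was 6.77, against 3.88 over all genes tested, and 56 of 60 lay above that value. With edgeR's quasi-likelihood test and a threshold of 0.05 on the adjusted p, 14 members passed as higher in WDR11OE tumors (23.3%, against 18.1 percent of all genes tested) and 13 as lower (21.7%, against 15.8 percent). Among 8400 genes whose average log2 CPM exceeded 4, which resemble the members more in abundance, the shares were 24.6% and 24.2%. The number of changed members was therefore close to that of other abundant genes. Role groups and lists below are set against all genes tested, where the shares are smaller than among abundant genes.

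Calls at a change of 2-fold were made for 3 higher members, Eif3e, Mcts1 and Eif2s3y (background 2.38 percent), and for 2 lower members, Eif4ebp2 and Eif2c2 (background 3.43 percent). The values of the groups did not overlap for 17 members that were higher (28.3%) and 15 that were lower (25%). The backgrounds over all genes tested were 23.5 percent and 19.1 percent. Among the 8400 genes whose average log2 CPM exceeded 4, the shares were 28.2% and 27.6%. The members were therefore close to other abundant genes here as well. The median log2 fold change of the members was 0.005, and 0.085 over all genes tested. Summed over the 62 members, the level was 10325 ± 1083 CPM (SD, n = 3) in controls and 10466 ± 619 CPM (SD, n = 4) in WDR11OE tumors. These totals differed by less than the spread of the tumors while single members moved apart. Without the Argonautes, 14 of 56 tested members passed as higher and 11 as lower.

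**Figure D1:**
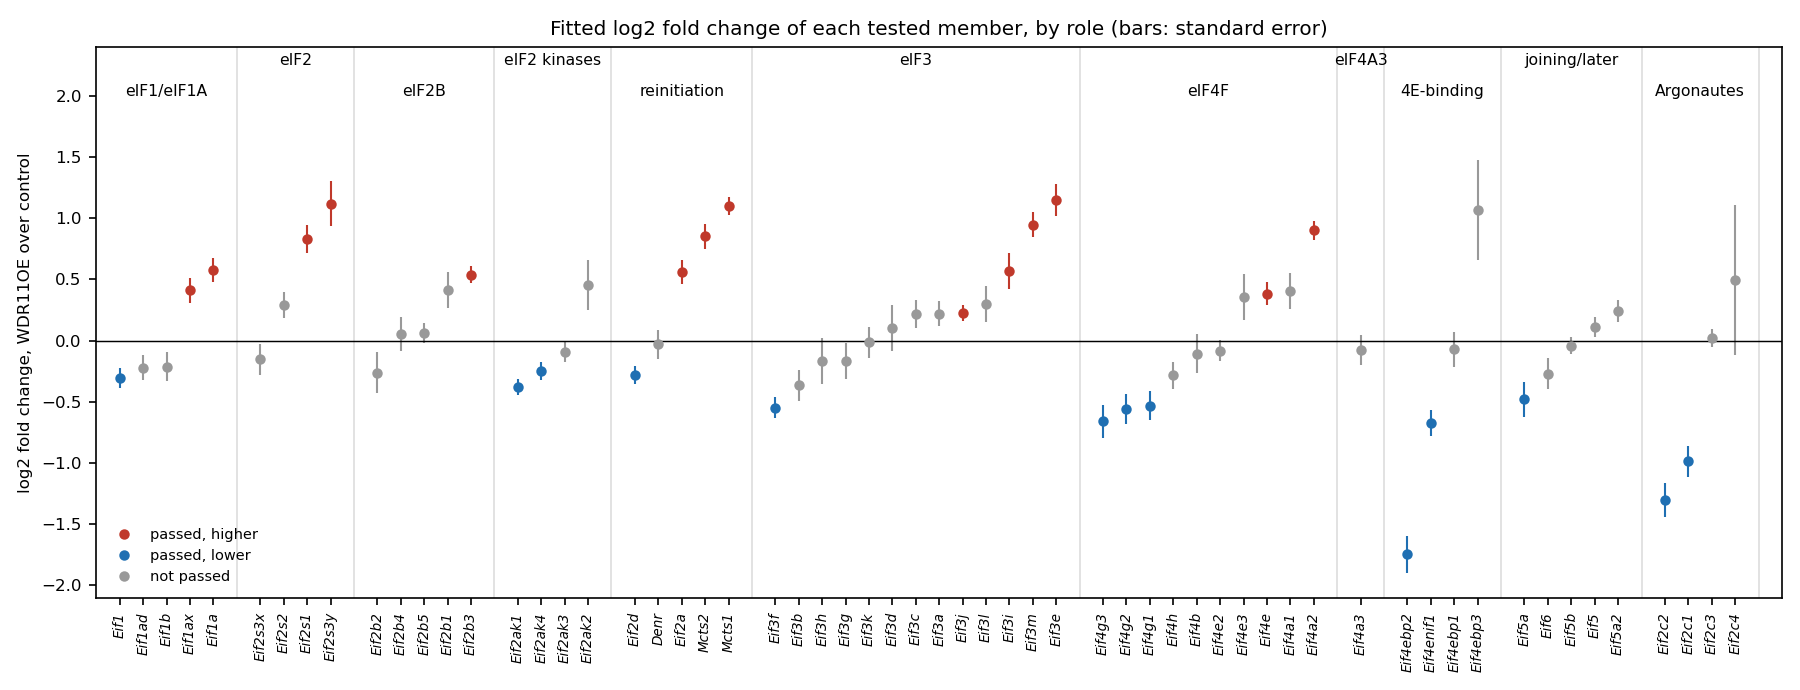
Log2 fold change (vertical axis) of each of the 60 tested members, WDR11OE over control, with the standard error as a bar, ordered within role groups. Members passed in both directions in several groups, from -1.75 for Eif4ebp2 to 1.15 for Eif3e.

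The largest difference among the members was in Eif4ebp2 (ENSMUSG00000020091, minus strand, chr10:60895245-60915417 in NCBIM37). It encodes 4E-BP2, one of the repressors that hold eIF4E away from eIF4G. Eif4ebp2 was at 46.8, 49.7 and 48.4 CPM in the 3 control tumors and at 11.3, 14.2, 18.2 and 14 CPM in WDR11OE replicates 1 to 4. The highest WDR11OE tumor was well below the lowest control. The log2 fold change was -1.75 (SE 0.15, adjusted p = 0.000917 from edgeR), which is 29.8% of the control level. The exact permutation test gave p = 0.0286, the smallest it can give over 35 splits. The region around the start of Eif4ebp2 is shown since this member changed most. RefSeq has 1 entry for it on GRCm38.p6, minus strand, chr10:61452620-61452919, from 250 bases before to 50 after the start, with a GC content of 70%.
Eif4ebp2 promoter: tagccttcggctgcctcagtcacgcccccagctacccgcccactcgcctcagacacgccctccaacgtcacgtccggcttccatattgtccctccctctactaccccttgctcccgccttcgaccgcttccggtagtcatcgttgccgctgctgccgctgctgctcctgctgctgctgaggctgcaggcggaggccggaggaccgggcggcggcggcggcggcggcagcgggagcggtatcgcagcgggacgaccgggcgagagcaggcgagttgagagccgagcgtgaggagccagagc
It holds no match to the E-box cacgtg, the palindrome that MYC binds, which would be in capitals.

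Of the other 3 genes of this group, 1 was lower as well. Eif4ebp1, the best known target of mTOR in this family, was at 37.0, 31.9 and 41.7 CPM in controls and at 35.9, 42.0, 29.9 and 32.4 CPM in WDR11OE tumors. The groups overlapped, with a log2 fold change of -0.07 (adjusted p = 0.740 from edgeR). Without control replicate 3 the log2 fold change was 0.02 (adjusted p = 0.929 from edgeR). Eif4ebp3 was close to the detection limit at 0.184 to 0.923 CPM (log2 fold change 1.07, SE 0.41, adjusted p = 0.0835), and shares 501 exon bases with Ankhd1 on the same strand. Eif4enif1, which encodes the eIF4E transporter 4E-T that carries eIF4E to the nucleus and to P-bodies, was at 85.7, 87 and 96.7 CPM in controls and at 51.6, 49.3, 63.9 and 60.6 CPM in WDR11OE tumors. All WDR11OE tumors were below all controls (log2 fold change -0.67, SE 0.11, adjusted p = 0.00352 from edgeR). The summed level of the 4 genes was 175 ± 10.1 CPM (SD, n = 3) in controls and 107 ± 5.33 CPM (SD, n = 4) in WDR11OE tumors.

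Parts of eIF4F, the target of these repressors, changed in both directions. Of 10 tested members, 2 passed as higher (20%) and 3 as lower (30%), against 18.1 percent and 15.8 percent of all genes tested. For genes whose average log2 CPM exceeded 4, the shares were 24.6 percent and 24.2 percent. Eif4e, the cap-binding protein itself, was higher, at 116 to 141 CPM in controls and at 153 to 176 CPM in WDR11OE tumors (log2 fold change 0.38, adjusted p = 0.0164 from edgeR), a call that was lost in 8 of the 17 alternative fits. The related cap-binding genes Eif4e2 (log2 fold change -0.08, adjusted p = 0.510) and Eif4e3 (0.36, adjusted p = 0.184) did not pass.

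All of the 3 eIF4G genes were lower. These encode the scaffold that joins the cap, the helicase and eIF3, except that Eif4g2 encodes p97/DAP5, which lacks the part that binds eIF4E. Eif4g3 was at 169, 136 and 131 CPM in controls and at 82.8, 80.7, 105 and 99.2 CPM in WDR11OE tumors. No WDR11OE tumor reached the lowest control (log2 fold change -0.66, SE 0.13, adjusted p = 0.00819 from edgeR). Eif4g1 was at 592, 664 and 745 CPM in controls and at 444, 496, 508 and 399 CPM in WDR11OE tumors, again without overlap (log2 fold change -0.53, SE 0.12, adjusted p = 0.0145). This call was lost in 4 of the 17 alternative fits, among them those with the GC trend (-0.37, adjusted p = 0.153) and the trend on exon length removed (-0.38, adjusted p = 0.262). Eif4g2 was at 937 to 1046 CPM in controls and at 592 to 802 CPM in WDR11OE tumors (log2 fold change -0.56, adjusted p = 0.0118). Its call was lost with the trend on exon length removed (-0.37, adjusted p = 0.179).

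Of the 2 eIF4A genes, which encode the helicase, Eif4a2 passed as higher. It encodes the second form of eIF4A and was at 251, 246 and 222 CPM in controls and at 445, 436, 445 and 464 CPM in WDR11OE tumors. The WDR11OE tumors lay close together and far above the controls, with a log2 fold change of 0.90 (SE 0.08, adjusted p = 0.000917 from edgeR). Its exons share 194 bases with Rfc4 on the other strand. On the same strand, these exons share bases with genes of small nucleolar RNAs. The shared bases were 178 for Snora81, 129 and 125 for SNORA63, 69 for Snord2 and 10 for SNORA4. Eif4a1, the main form, was at 680, 685 and 951 CPM in controls and at 1068, 1095, 986 and 935 CPM in WDR11OE tumors. Control replicate 3 reached above the lowest WDR11OE tumor (log2 fold change 0.40, SE 0.15, adjusted p = 0.0729), and without this control the log2 fold change was 0.58 (adjusted p = 0.0130 from edgeR).

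Reads of Eif4a1 are hard to place, since the pseudogene Eif4a-ps4 shares 1119 of its 1169 windows of 50 bases with Eif4a1 transcripts and none with those of Eif4a2. Eif4a-ps4 was at 150, 185 and 195 CPM in controls and at 292, 300, 271 and 250 CPM in WDR11OE tumors. The rule leaves it out of the members (log2 fold change 0.66, adjusted p = 0.00495 from edgeR). Added to Eif4a1, it gave 830 to 1146 CPM in controls and 1184 to 1395 CPM in WDR11OE tumors, which no longer overlapped (two-sided exact permutation p = 0.0286). The cofactors of the helicase, Eif4b (log2 fold change -0.11, adjusted p = 0.652) and Eif4h (-0.28, adjusted p = 0.0896), did not pass. Eif4a3, a helicase of the same family that works in the exon junction complex, overlapped between the groups at 81.1 to 112 CPM and 81.2 to 98.3 CPM (log2 fold change -0.07, and 0.05 with the GC trend removed).

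**Figure D2:**
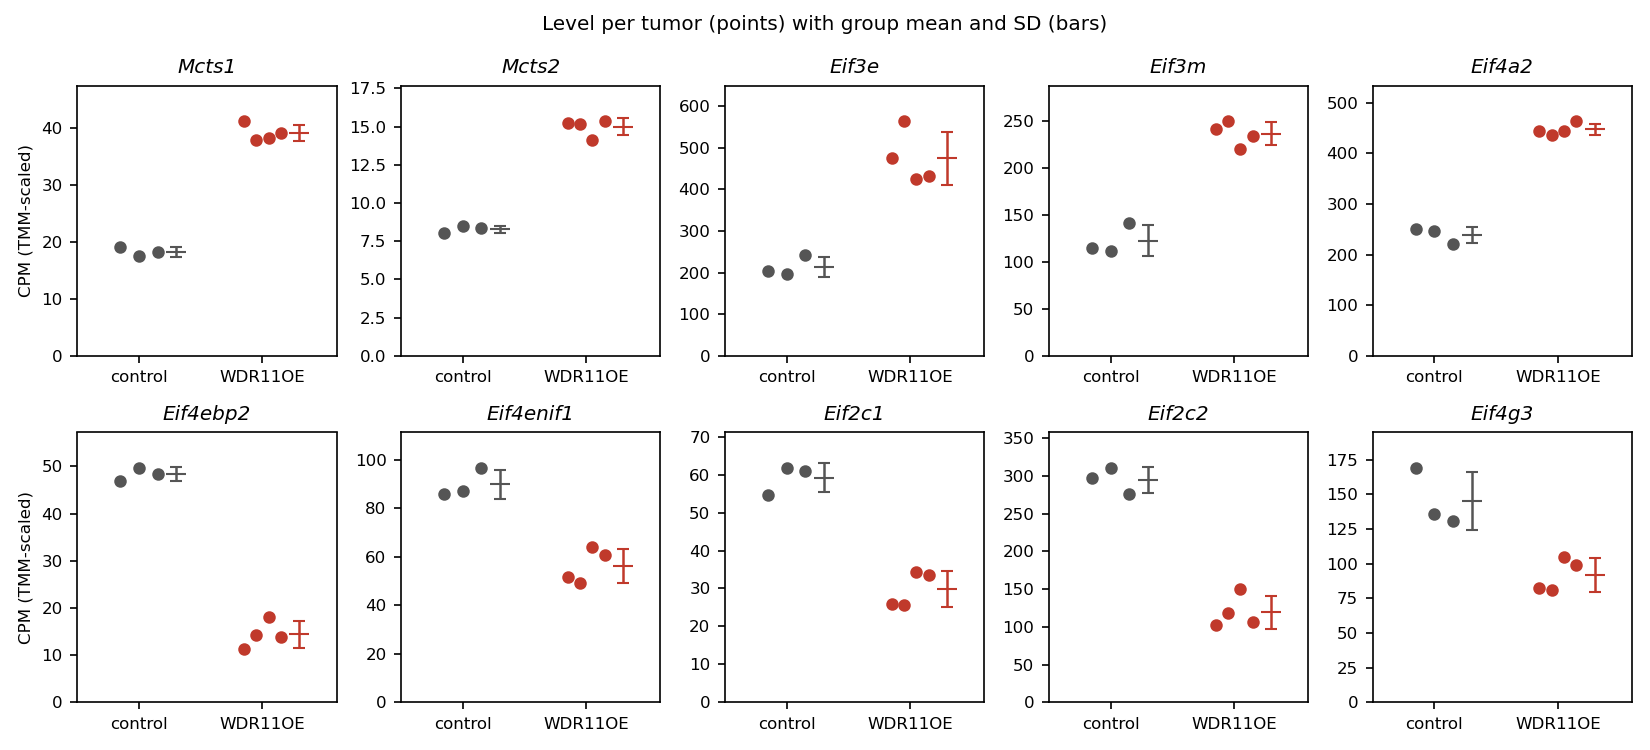
Level in CPM (vertical axes, starting at 0) of 10 members in each of the 3 control and 4 WDR11OE tumors, with the mean and SD of each group beside the points. The 10 were picked from the 12 members that passed in every alternative fit, so their lack of overlap is no separate finding. Among all 60 tested members the groups overlapped for 28. Eif4ebp2 fell from 46.8 CPM or more to 18.2 CPM or less.

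Of the 5 genes for reinitiation and noncanonical tRNA delivery, 3 passed as higher (60%) and 1 as lower (20%). The shares of all genes tested were 18.1 percent and 15.8 percent. MCTS1 and DENR form a dimer that helps ribosomes to recycle and to start again after a short upstream reading frame, and Mcts2 is a copy of Mcts1 that lies within an intron of H13. Mcts1 (ENSMUSG00000000355, chrX:35953755-35966699, plus strand, NCBIM37) was at 19.2, 17.5 and 18.1 CPM in controls and at 41.2, 37.9, 38.2 and 39.2 CPM in WDR11OE tumors. The 2 groups were tight and far apart, with a log2 fold change of 1.10 (SE 0.07, adjusted p = 0.000858 from edgeR). Mcts2 (ENSMUSG00000042814, chr2:152512884-152513676, plus strand) was at 8.06, 8.51 and 8.33 CPM in controls and at 15.3, 15.2, 14.1 and 15.4 CPM in WDR11OE tumors (log2 fold change 0.85, SE 0.10, adjusted p = 0.00146). It rose without overlap as well.

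To see whether reads of the 2 genes can be told apart, their coding sequences (546 bases each) were aligned. They were identical at 465 bases (85.2%), and no window of 50 bases was shared between their transcripts. The first 120 coding bases of the GENCODE transcripts on NCBIM37 are shown with the 19 bases that differ in capitals.
Mcts1 coding bases: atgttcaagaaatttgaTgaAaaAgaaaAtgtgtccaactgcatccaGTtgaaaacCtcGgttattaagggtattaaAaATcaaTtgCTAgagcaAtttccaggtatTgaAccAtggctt
Mcts2 coding bases: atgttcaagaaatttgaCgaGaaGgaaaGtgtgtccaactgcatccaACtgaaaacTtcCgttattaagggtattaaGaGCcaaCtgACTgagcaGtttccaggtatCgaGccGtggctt
The differences are spread over the stretch, and any 50 bases of one transcript differ from the other. The windows around the starts are shown as well, since both genes rose. RefSeq gives Mcts2 the window chr2:152686898-152687197 (plus strand, GRCm38.p6) and Mcts1 a pair of windows, of which chrX:38600221-38600520 (plus strand) is shown. An E-box is in capitals.
Mcts1 promoter: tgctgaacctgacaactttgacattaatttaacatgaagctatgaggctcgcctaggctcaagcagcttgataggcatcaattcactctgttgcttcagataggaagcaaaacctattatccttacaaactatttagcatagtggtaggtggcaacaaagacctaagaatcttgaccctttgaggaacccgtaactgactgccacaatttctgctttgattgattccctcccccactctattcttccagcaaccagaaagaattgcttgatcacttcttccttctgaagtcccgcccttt
Mcts2 promoter: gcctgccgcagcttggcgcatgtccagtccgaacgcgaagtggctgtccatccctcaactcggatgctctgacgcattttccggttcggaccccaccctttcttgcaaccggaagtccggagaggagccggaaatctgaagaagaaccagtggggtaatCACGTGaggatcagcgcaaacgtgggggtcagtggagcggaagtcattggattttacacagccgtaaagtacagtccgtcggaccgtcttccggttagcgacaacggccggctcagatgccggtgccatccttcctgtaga
The E-box of Mcts2 begins 91 bases before the start, and neither of the Mcts1 windows holds one. The GC content was 58% for Mcts2 and 43% for the Mcts1 window shown.

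Denr, the partner of both, did not follow. It was at 45.3, 38.5 and 52.9 CPM in controls and at 44.9, 48.7, 44.7 and 40.4 CPM in WDR11OE tumors, with overlapping groups and a log2 fold change of -0.03 (SE 0.12, adjusted p = 0.882 from edgeR), which turned to 0.09 without control replicate 3. Per kb of exon, Mcts1 and Mcts2 were alike in controls (11 and 10.5 CPM per kb) and Denr was at 16 CPM per kb. In WDR11OE tumors the means were 23.5, 18.9 and 15.7 CPM per kb. Exon length joined the exons of all annotated transcripts, 1667 bases for Mcts1 and 793 for Mcts2, and the likeness depends on it. Not scaled by length, the control means were 18.25 CPM for Mcts1 and 8.3 CPM for Mcts2. Eif2d, a single protein related to the MCTS1-DENR dimer, was at 37.6 to 42.7 CPM in controls and at 31.8 to 34.6 CPM in WDR11OE tumors (log2 fold change -0.28, adjusted p = 0.0214). Eif2a, which can deliver tRNA without eIF2, was at 72.3 to 97.0 CPM in controls and at 122 to 125 CPM in WDR11OE tumors (log2 fold change 0.56, adjusted p = 0.00531).

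Among the subunits of eIF2, the alpha subunit gene Eif2s1, whose product is phosphorylated under stress, was at 126, 143 and 165 CPM in controls and at 277, 271, 245 and 236 CPM in WDR11OE tumors. The groups were apart (log2 fold change 0.83, SE 0.11, adjusted p = 0.00193 from edgeR, and 0.49 with an adjusted p = 0.103 once the GC trend was removed). The beta subunit gene Eif2s2 was at 120 to 160 CPM and 166 to 186 CPM (log2 fold change 0.29, adjusted p = 0.0793). The gamma subunit, which binds GTP and the tRNA, is encoded on both sex chromosomes of the mouse, by Eif2s3x and Eif2s3y.

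Eif2s3y (ENSMUSG00000069049, chrY:346986-365290, plus strand, NCBIM37) was at 43.0, 24.5 and 30.0 CPM in controls and at 73.3, 64.9, 71.5 and 72.3 CPM in WDR11OE tumors. The lowest WDR11OE tumor was above the highest control, with a log2 fold change of 1.12 (SE 0.18, adjusted p = 0.00383 from edgeR). Eif2s3x (chrX:91434046-91458201, minus strand) was at 156, 140 and 197 CPM in controls and at 153, 159, 147 and 132 CPM in WDR11OE tumors. It overlapped (log2 fold change -0.15, SE 0.13, adjusted p = 0.409). The 2 coding sequences are shown because the share of the Y-linked copy depends on telling them apart. Over 1419 aligned bases 194 differed, no window of 50 bases was shared between the transcripts, and the differing bases among the first 120 are in capitals.
Eif2s3x coding bases: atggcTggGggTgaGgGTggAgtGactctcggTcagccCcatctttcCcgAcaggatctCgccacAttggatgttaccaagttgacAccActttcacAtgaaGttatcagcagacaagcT
Eif2s3y coding bases: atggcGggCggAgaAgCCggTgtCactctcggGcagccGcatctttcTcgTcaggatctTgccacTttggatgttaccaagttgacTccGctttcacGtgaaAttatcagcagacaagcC
The coding range of Eif2s3y was taken as the longest open reading frame of a transcript in the protein-coding set.

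Ddx3y, Kdm5d and Uty, also Y-linked, moved with Eif2s3y, and so did some X-linked genes. Ddx3y was at 56.6 to 86.7 CPM in controls and at 104 to 118 CPM in WDR11OE tumors (log2 fold change 0.67, adjusted p = 0.00973 from edgeR). Kdm5d (log2 fold change 0.66, adjusted p = 0.00518) and Uty (0.81, adjusted p = 0.00724) were higher too. The Y-linked Zfy1 and Zfy2 had 0 reads in every tumor. The X-linked Ddx3x (0.58, adjusted p = 0.00846) and Kdm6a (0.24, adjusted p = 0.0271) passed as higher, and the X-linked Kdm5c as lower (-0.34, adjusted p = 0.0105). Xist, the RNA of the inactive X chromosome, was at 106, 87.1 and 39.7 CPM in controls and at 81.9, 84.7, 124 and 272 CPM in WDR11OE tumors, with overlapping groups (adjusted p = 0.246). With the GC trend removed, Eif2s3y had a log2 fold change of 0.47 (adjusted p = 0.0856), Ddx3y 0.05 (adjusted p = 0.851), Kdm5d 0.47 (adjusted p = 0.0958) and Uty 0.22 (adjusted p = 0.314), so that none of the 4 passed. The calls of Ddx3x (0.1955, adjusted p = 0.4515), Kdm6a (-0.06, adjusted p = 0.705) and Kdm5c (-0.25, adjusted p = 0.192) were lost as well. The part of host cells in these levels was not tested.

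The eIF2B complex recharges eIF2 with GTP, and eIF2 phosphorylated by one of 4 kinases blocks it. Of the 5 eIF2B genes, Eif2b3 (the gamma subunit) was at 27.8, 25.0 and 28.2 CPM in controls and at 38.8, 38.9, 39.0 and 40.2 CPM in WDR11OE tumors. It was higher in each WDR11OE tumor (log2 fold change 0.54, SE 0.07, adjusted p = 0.00176 from edgeR). The other 4 did not pass, from -0.26 for Eif2b2 (adjusted p = 0.279) to 0.41 for Eif2b1 (adjusted p = 0.0698).

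Each of the 4 eIF2 kinases senses a different stress, and 2 passed as lower (50%, against 15.8 percent of all genes tested). Eif2ak1 (HRI, the sensor of heme shortage) was at 43.0 to 47.4 CPM in controls and at 33.4 to 35 CPM in WDR11OE tumors (log2 fold change -0.38, SE 0.06, adjusted p = 0.00446 from edgeR), and its exons share 487 bases with Aimp2 on the other strand. The Eif2ak1 call was lost with the trend on exon length removed (-0.26, adjusted p = 0.187 from edgeR). Eif2ak4 (GCN2, the sensor of uncharged tRNA) had a log2 fold change of -0.25 (adjusted p = 0.0346), a call that 11 of the 17 alternatives lost. Eif2ak3 (PERK, in the endoplasmic reticulum) was at -0.09 (adjusted p = 0.449), and Eif2ak2 (PKR, the sensor of double-stranded RNA) at 0.46 (adjusted p = 0.131). Of the targets of this response, Atf4 (log2 fold change -0.13, adjusted p = 0.473), Ddit3 (0.36, adjusted p = 0.175) and Trib3 (-0.48, adjusted p = 0.279) did not pass. From the list of 10 genes, 1 passed as higher (10%) and 2 as lower (20%), with backgrounds of 18.1 percent and 15.8 percent.

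Of the genes for start codon choice, Eif1 was slightly lower, at 130 to 141 CPM in controls and at 98.2 to 119 CPM in WDR11OE tumors (log2 fold change -0.31, adjusted p = 0.0255 from edgeR). Its copy Eif1b had a log2 fold change of -0.21 (adjusted p = 0.215). The eIF1A genes were higher. Eif1a was at 109, 95.6 and 125 CPM in controls and at 162, 173, 165 and 156 CPM in WDR11OE tumors (log2 fold change 0.58, adjusted p = 0.00446), and the X-linked Eif1ax had a log2 fold change of 0.41 (adjusted p = 0.0207). Both eIF1A calls were lost with the GC trend removed (log2 fold changes 0.18 and 0.01).

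The scaffold eIF3 has 13 subunit genes here, with fold changes in both directions. In WDR11OE tumors 4 passed as higher (Eif3e, Eif3m, Eif3i and Eif3j), 1 as lower (Eif3f) and 8 did not pass, with a median log2 fold change of 0.22. The shares were 30.8% higher and 7.69% lower, against 18.1 percent and 15.8 percent of all genes tested. For genes whose average log2 CPM exceeded 4, they were 24.6 percent and 24.2 percent. Eif3e (INT6, ENSMUSG00000022336, chr15:43081586-43114282, minus strand, NCBIM37) was at 204, 197 and 241 CPM in controls and at 476, 564, 426 and 433 CPM in WDR11OE tumors. Every WDR11OE tumor was above every control, with a log2 fold change of 1.15 (SE 0.13, adjusted p = 0.00127 from edgeR). Eif3m was at 115, 111 and 142 CPM in controls and at 242, 250, 221 and 234 CPM in WDR11OE tumors (log2 fold change 0.95, SE 0.10, adjusted p = 0.00115).

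Eif3f, whose product belongs with eIF3h to the pair of MPN-domain subunits, was at 170, 162 and 187 CPM in controls and at 124, 119, 125 and 106 CPM in WDR11OE tumors. It was lower in each of them (log2 fold change -0.55, SE 0.08, adjusted p = 0.00324 from edgeR). The core subunits Eif3a (log2 fold change 0.22, adjusted p = 0.147), Eif3b (-0.37, adjusted p = 0.0644) and Eif3c (0.22, adjusted p = 0.192) did not pass. Eif3e shares 144 windows of 50 bases with the pseudogene Eif3s6-ps1, which was at 1.12 to 1.72 CPM in controls and at 2.13 to 3.19 CPM in WDR11OE tumors.

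The WDR11OE tumors also differed among themselves. The titles of replicates 1 and 2 share a number, and for 10 of the 13 eIF3 genes both of these replicates were above replicates 3 and 4. Eif3d was at 223 and 217 CPM in replicates 1 and 2 and at 155 and 140 CPM in replicates 3 and 4, while the controls were at 157 to 196 CPM. The same order of replicates was found for 29 of the 60 tested members (48.3%) and for 29.9% of all genes tested, as a description of these 4 tumors with no test. Eif3i (log2 fold change 0.57, adjusted p = 0.0208) no longer passed with replicates 1 and 2 summed into 1 sample, at 0.48 (adjusted p = 0.103 from edgeR). Eif3j did not pass either, with a log2 fold change of 0.23 (adjusted p = 0.0313) that became 0.18 (adjusted p = 0.218). Eif3e and Eif3m still passed in every alternative. The exons of Eif3j share 1107 bases with Spg11, those of Eif3d 625 with the lincRNA Gm17638 and those of Eif3m 82 with Ccdc73, each on the other strand. Whether the counting used strand is not known, and without it reads of such partners cannot be told apart.

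**Figure D3:**
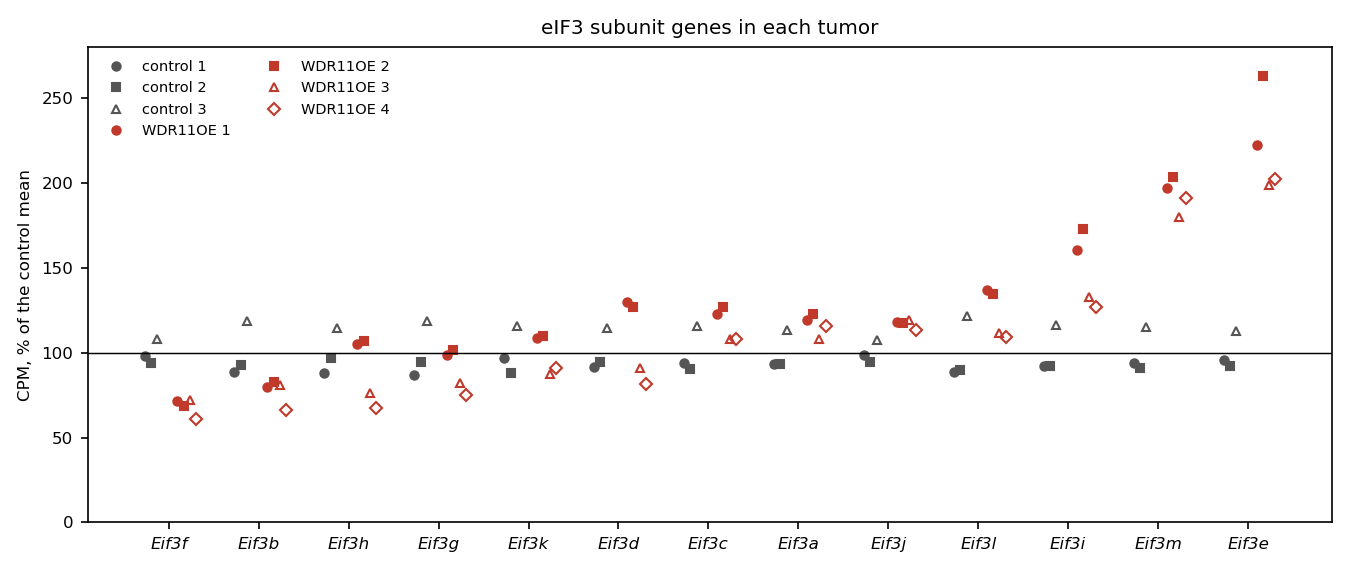
CPM of the 13 eIF3 subunit genes in each tumor, as percent of the control mean (vertical axis), ordered by fold change, with filled symbols for replicates 1 and 2 of a group and open symbols for the rest. Eif3e and Eif3m were higher in all 4 WDR11OE tumors and Eif3f was lower, and in most of the other genes WDR11OE replicates 1 and 2 were above replicates 3 and 4.

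Of the genes for subunit joining and later steps (Eif5, Eif5b, Eif5a, Eif5a2 and Eif6), only Eif5a passed, as lower (20%, against 15.8 percent of all genes tested). Its product, which carries the modified amino acid hypusine, acts mostly in elongation. Eif5a was at 583, 588 and 797 CPM in controls and at 490, 511, 471 and 409 CPM in WDR11OE tumors, without overlap but with control replicate 3 apart (log2 fold change -0.48, SE 0.14, adjusted p = 0.0353 from edgeR). Without this control the adjusted p was 0.0802. The call was lost in 9 of the 17 alternative fits, among them each that left out a WDR11OE tumor. Eif5 (log2 fold change 0.12, adjusted p = 0.329), the GTPase activator of eIF2, and Eif5b (-0.04, adjusted p = 0.702), which joins the subunits, did not pass. The exons of Eif5b share 1239 bases with Rev1 on the other strand.

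The Argonautes form a separate family, and 2 of the 4 tested genes were among the lowest members. Eif2c2 (Ago2, which can cleave its targets) was at 297, 311 and 276 CPM in controls and at 102, 119, 151 and 107 CPM in WDR11OE tumors. All of the WDR11OE tumors were far below the controls (log2 fold change -1.30, SE 0.14, adjusted p = 0.00113 from edgeR). Eif2c1 (Ago1) was at 54.8, 61.8 and 61.0 CPM in controls and at 25.9, 25.8, 34.3 and 33.6 CPM in WDR11OE tumors (log2 fold change -0.99, SE 0.13, adjusted p = 0.00174). Eif2c3 (Ago3) overlapped at 62.7 to 74.3 CPM and 68.9 to 73.4 CPM (log2 fold change 0.02, adjusted p = 0.862, and between -0.06 and -0.01 in 3 of the fits that left out 1 tumor). Eif2c4 (Ago4) was low, at 1.21 to 5.69 CPM (log2 fold change 0.50, adjusted p = 0.583, and -0.33 without WDR11OE replicate 4).

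Of 9 genes of the microRNA machinery, 4 passed as lower, 1 as higher and 4 did not pass. The shares were 44.4% lower and 11.1% higher, against 15.8 percent and 18.1 percent of all genes tested. Of the genes whose average log2 CPM exceeded 4, 24.2 percent were lower and 24.6 percent higher. Drosha, the nuclear enzyme that cuts primary microRNAs, was at 120, 130 and 130 CPM in controls and at 68.3, 73.4, 84.8 and 67.2 CPM in WDR11OE tumors. The groups were apart (log2 fold change -0.79, SE 0.09, adjusted p = 0.00137 from edgeR). The 3 GW182 genes, whose products silence the targets of Argonautes, passed as lower, with log2 fold changes of -0.33 for Tnrc6a (adjusted p = 0.0358), -0.63 for Tnrc6b (adjusted p = 0.00360) and -0.56 for Tnrc6c (adjusted p = 0.00403). With the trend on exon length removed, none of these 3 passed, at -0.18 (adjusted p = 0.282), -0.39 (adjusted p = 0.263) and -0.34 (adjusted p = 0.155 from edgeR), and Tnrc6a lost its call in 6 further alternatives. The higher one was Prkra, a partner of Dicer (0.72, adjusted p = 0.00581, and 0.60 with an adjusted p = 0.0543 once the GC trend was removed).

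Where a factor is encoded by several genes, the share of one paralog in its family was compared between the groups, with levels per kb of exon. Exon lengths joined the exons of all annotated transcripts, so the size of each share depends on them. In 6 of 8 families the groups did not overlap, each with a two-sided exact permutation p = 0.0286 (0.0381 adjusted over the 8 shares). Among all genes tested, the levels of 23.5 percent did not overlap as higher and of 19.1 percent as lower. For genes whose average log2 CPM exceeded 4, these were 28.2 percent and 27.6 percent. No such background was computed for shares. A share is made from gene levels given above, so it is no finding separate from them. The share of Eif4ebp2 in the 4E-BP genes was 41.7% ± 3.64 (SD, n = 3) in controls and 18.2% ± 4.61 (SD, n = 4) in WDR11OE tumors. That of Eif2c2 in the Argonautes was 75.9% ± 0.682 and 64.1% ± 3.96. The share of Mcts2 was 48.9% ± 1.87 and 44.6% ± 1.0, and 31.3% and 27.7% in CPM not scaled by length. The order of the pair depended on the GC trend, since with it removed the log2 fold change was 0.74 for Mcts2 and 0.65 for Mcts1.

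The share of the minor copy was higher in WDR11OE tumors in 3 pairs. Eif2s3y went from 15.4% ± 4.20 (SD, n = 3) to 30.5% ± 2.56 (SD, n = 4) of the gamma subunit pair. In CPM not scaled by length, it went from 16.6% to 32.4%. Eif4a2 went from 20.5% ± 3.99 to 26.3% ± 1.88 of the eIF4A pair, and from 17.3% ± 3.29 to 21.9% ± 1.7 with the reads of Eif4a-ps4 added to Eif4a1 (exact permutation p = 0.0286). Its difference of 5.80 percentage points fell to 3.50 without control replicate 3, and was at most 7.06 on leaving out any other tumor. Eif5a2 went from 1.78% ± 0.267 to 2.88% ± 0.488 of the eIF5A pair, although its own level did not pass (log2 fold change 0.24, adjusted p = 0.0700 from edgeR). In each of these pairs the minor copy has the lower exon GC content, 35.4% against 44.0% for Eif2s3y and Eif2s3x, 40.4% against 48.9% for Eif4a2 and Eif4a1, and 38.5% against 55.4% for Eif5a2 and Eif5a. With the GC trend removed, the log2 fold changes were 0.47 for Eif2s3y and -0.34 for Eif2s3x, 0.54 for Eif4a2 and 0.40 for Eif4a1, and -0.25 for Eif5a2 and -0.30 for Eif5a. The shares themselves were not corrected for GC content. No such shift was detected for Eif4g3 (-1.02 percentage points, exact permutation p = 0.571) or Eif1b (1.58 percentage points, exact permutation p = 0.457).

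**Figure D4:**
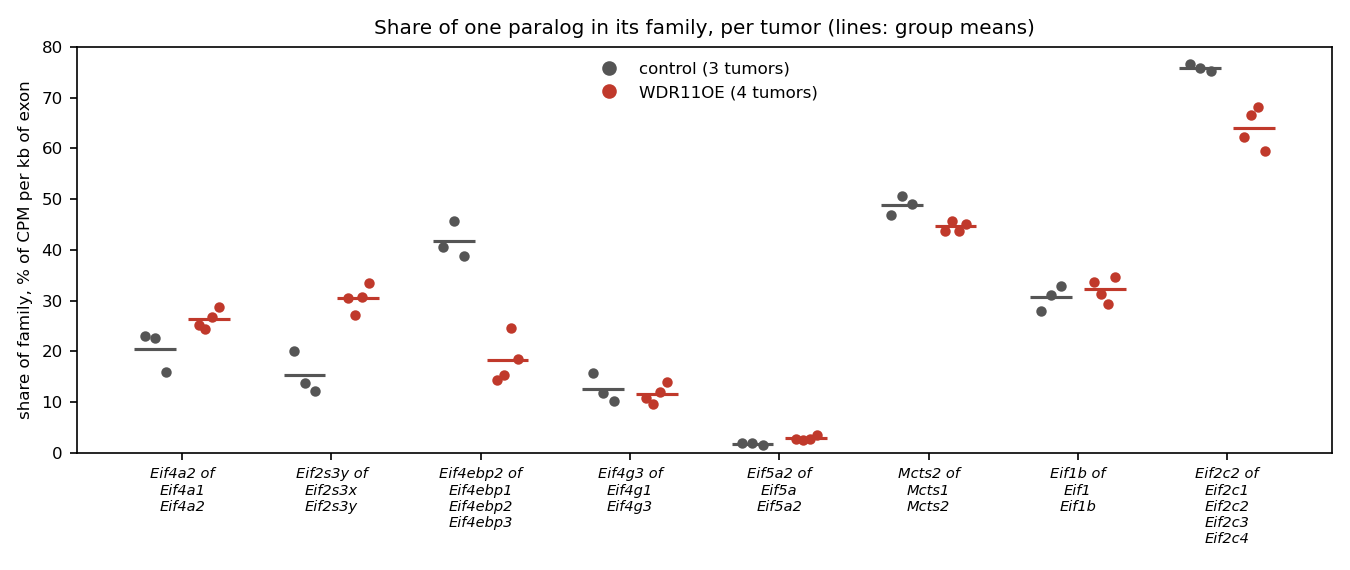
Share of one paralog in its family (percent of CPM per kb of exon, vertical axis) in each of the 3 control and 4 WDR11OE tumors, with lines at the group means. The shares of Eif4ebp2, Mcts2 and Eif2c2 were lower in all WDR11OE tumors, those of Eif4a2, Eif2s3y and Eif5a2 were higher, and those of Eif4g3 and Eif1b overlapped.

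Other genes that act on these factors were read from the same fit. Of 54 such genes, 8 passed as higher and 14 as lower (backgrounds as above), and both 2-fold calls were lower. Pabpc1, the poly(A)-binding protein that contacts eIF4G, was at 1246, 1164 and 1234 CPM in controls and at 546, 624, 635 and 439 CPM in WDR11OE tumors, less than any control in each (log2 fold change -1.11, SE 0.14, adjusted p = 0.00162 from edgeR). Larp1, which holds back mRNAs of the translation machinery downstream of mTOR, was at 378, 368 and 393 CPM in controls and at 163, 183, 211 and 172 CPM in WDR11OE tumors (log2 fold change -1.06, SE 0.10, adjusted p = 0.00104).

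In the mTOR and MNK list of 13 genes, 2 passed as higher (15.4%) and 4 as lower (30.8%), with backgrounds of 18.1 percent and 15.8 percent. For genes whose average log2 CPM exceeded 4, the backgrounds were 24.6 percent and 24.2 percent. Besides Larp1, the mTORC1 scaffold Rptor (log2 fold change -0.56, adjusted p = 0.00181 from edgeR, and -0.33 with an adjusted p = 0.236 once the trend on exon length was removed) and its inhibitor Tsc2 (-0.77, adjusted p = 0.00112) were lower, while Mtor did not pass (-0.22, adjusted p = 0.121). Rps6kb1, the S6 kinase gene, was higher (0.37, adjusted p = 0.00716), and this turned to -0.08 with the GC trend removed. Abce1, which splits ribosomes after termination, was at 277 to 335 CPM in controls and at 452 to 534 CPM in WDR11OE tumors (log2 fold change 0.72, adjusted p = 0.00289, and 0.35 with an adjusted p = 0.219 once the GC trend was removed). Of 11 elongation and termination factor genes 2 passed, both lower (18.2%, background 15.8 percent), among them Gspt1, which encodes the release factor eRF3a (-0.68, adjusted p = 0.00649).

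The direction of a member went along with the GC content of its exons. Across the 60 tested members, Spearman's rho between exon GC content and log2 fold change was -0.58, and it was -0.35 across the 14932 protein-coding genes tested. Genes are not independent replicates, and all share the same 7 libraries. Of the 21 members with a GC content under 45%, 11 passed as higher and 1 as lower, whereas of the 27 members at 50% or more 1 passed as higher and 9 as lower. Among all genes tested in these ranges, 37.2% and 8.18% passed as higher, and 4.29% and 23% as lower. The same trend thus ran through the whole table.

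When this trend was removed within each tumor by a loess on exon GC content, 6 members passed as higher (10%, against 7.92 percent of all genes tested) and 8 as lower (13.3%, against 10.6 percent), and no higher member kept a 2-fold call. Among the 8400 abundant genes the shares were 8.64% and 16.5%. The higher members that still passed were Eif3e (log2 fold change 0.76, adjusted p = 0.0375 from edgeR), Mcts2 (0.74, adjusted p = 0.0118), Mcts1 (0.65, adjusted p = 0.0118), Eif3m (0.65, adjusted p = 0.0293), Eif4a2 (0.54, adjusted p = 0.0167) and Eif2b3 (0.42, adjusted p = 0.0273). The lower calls were hardly moved at the top, with log2 fold changes of -1.58 for Eif4ebp2 (adjusted p = 0.00239), -1.24 for Eif2c2 (adjusted p = 0.00351), -0.95 for Eif2c1 (adjusted p = 0.00300) and -0.70 for Eif4enif1 (adjusted p = 0.00510). Calls were lost for Eif1a, Eif1ax, Eif2a, Eif2s1, Eif2s3y, Eif3i, Eif3j and Eif4e among the higher members and for Eif1, Eif2ak4, Eif2d, Eif4g1 and Eif5a among the lower ones. The fold changes of 2 of these were hardly moved, at 0.62 for Eif3i (adjusted p = 0.0554, 0.57 as first fitted) and -0.23 for Eif2ak4 (adjusted p = 0.0839, -0.25 as first fitted). Whether the trend arose in the libraries or in the cells was not tested.

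**Figure D5:**
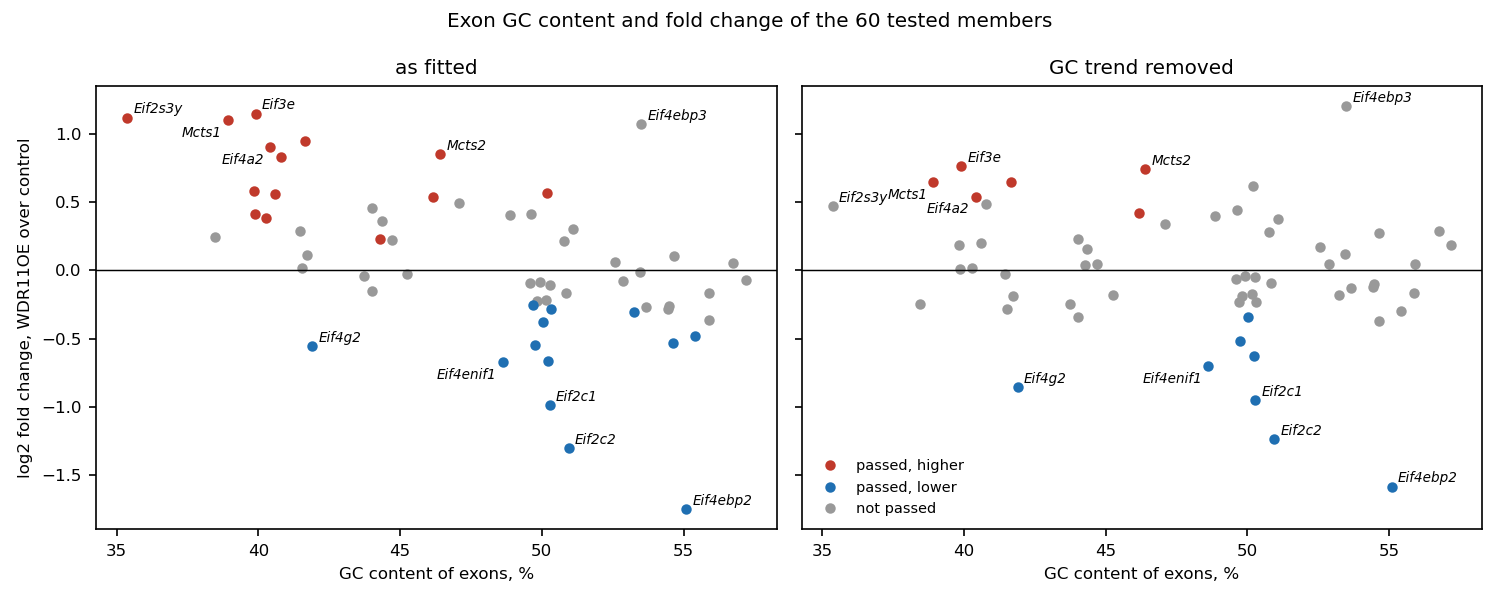
GC content of exons in percent (horizontal axis) against the log2 fold change (vertical axis) of the 60 tested members, as fitted (left) and with the GC trend of each tumor removed (right). On the left 11 of the 21 members under 45% GC passed as higher, and on the right 6 members in all passed as higher and 8 as lower.

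The E-box cacgtg was searched in the RefSeq promoter windows (300 bases each, GRCm38.p6). The motif reads the same on both strands, so 1 search covers both. Of 50 members with a promoter entry, 11 held it (22%), against 8.09% of all 27025 genes with such an entry. Those genes were not limited to the ones tested here, and no background of abundant genes was computed. It was in 2 of 10 higher members, 3 of 11 lower members and 6 of 29 members that did not pass. Myc itself was lower in WDR11OE tumors (log2 fold change -1.40, adjusted p = 0.00228 from edgeR), in a table that does not separate the retroviral Myc from that of the mouse. Such a match is a description of the letters and not a measured binding site.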

How the data were processed

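RNA of 7 mouse G3 MBs was sequenced. Reads were mapped to NCBIM37 (StrongArm pipeline), HT-seq gave the reads per GENCODE gene, and the authors deposited the raw counts. Versions and the strand setting of the counting are not given in the sources used here, apart from CASAVA 1.7 in the submitters' notes. The labels name a TruSeq RNA kit, whereas the methods describe total stranded RNA-seq.

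Counts were scaled by TMM to CPM and tested in R 4.3.3 with edgeR 4.0.16 (filterByExpr, quasi-likelihood test, two-sided, condition as the only term, Benjamini-Hochberg adjustment over 17389 genes). A member passed at an adjusted p under 0.05 and was called if it also changed 2-fold at an average log2 CPM above 0. Single levels (log2 CPM with a prior count of 2) and paralog shares were compared by exact permutation over 35 splits, where the smallest p is 0.0286. Counting error and p-values cover these libraries only, since the labels do not say that tumors of a group are independent and reads carry no molecular identifiers.

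Coordinates, exon length and GC content came from GENCODE vM1 on NCBIM37, promoters from RefSeq. Of the 34592 genes, 33606 matched by identifier and 52 by a unique symbol, among them Eif2c2 and Eif4e3. The alternatives were limma 3.58.1 with voom (the study's method), DESeq2 1.42.0, other scalings and filters, loess removal of the trend with GC content or exon length, the sum of WDR11OE replicates 1 and 2, and leaving out each tumor. The addition of Eif4a-ps4 to Eif4a1 was chosen after seeing the data. The scripts were tested on simulated data.

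Members, role groups and lists were chosen with earlier results of these data known. Named by rule were the called members, the genes with the lowest and highest fold change in each group, the genes of the paralog shares, the sex chromosome genes and the untested members. Other genes were named after their values were seen.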

Additional observations from a re-analysis of the deposited data

Results flagged for a closer look

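Within the 4 WDR11OE tumors, single tumors stood apart by Dixon's test in 5 of 53 groups of values examined, where chance alone flags about 1 in 20. Eif2c4 was at 5.69 CPM in WDR11OE replicate 4, against 1.21 to 1.73 CPM in replicates 1 to 3, and its log2 fold change of 0.50 rested on this tumor. The share of Eif5a2 was 3.61% in the same tumor and 2.58% to 2.67% in the others. Ddx3y was at 104 CPM in replicate 4, below the 116 to 118 CPM of the rest, but above every control. Eif2b3 was at 40.2 CPM in replicate 4, against 38.8 to 39.0 CPM, and Mcts2 at 14.1 CPM in replicate 3, against 15.2 to 15.4 CPM. In these last 2 genes the gaps were small beside the distance from the controls. The summed level of the neuron markers was also highest in replicate 4, at 694 CPM, and its part in these values was not tested.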

How the results depend on the processing

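Of the 27 members that passed, 12 did so in every alternative: Eif4ebp2, Eif2c1, Eif2c2, Eif4enif1, Eif4g3 and Eif3f as lower, and Mcts1, Mcts2, Eif2b3, Eif3e, Eif3m and Eif4a2 as higher. With the GC trend removed, 6 members passed as higher (14 as fitted), 8 as lower (13), 0 higher members were called at 2-fold (3), and 0 other translation genes passed as higher (8). Lower members also numbered 8 with the length trend removed and 8 with WDR11OE replicates 1 and 2 summed, while the other translation genes had 6 lower ones with the length trend removed and 5 higher ones with the replicates summed. On leaving out 1 tumor, higher members ranged from 10 to 18 and lower ones from 8 to 12, with 8 without WDR11OE replicate 1, and the other translation genes that were higher ranged from 3 (without WDR11OE replicate 1) to 10. Wdr11 was at 0.19 (adjusted p = 0.0454 from edgeR) with upper quartile scaling and at -0.0025 with the GC trend removed. Some values changed sign. Denr was at 0.0079 with upper quartile scaling and ranged from -0.1386 to 0.0907 on leaving out 1 tumor, above 0 without control replicate 3 (0.0907) and without WDR11OE replicate 4 (0.0173). Eif2c3 was at -0.0240 with DESeq2, -0.0230 with its size factors in edgeR, -0.0246 with the replicates summed, -0.0329 without a filter and -0.28 with the GC trend removed, and ranged from -0.0574 to 0.0609 on leaving out 1 tumor. Eif4a3 was at 0.0450 and Eif4ebp1 at 0.19 with the GC trend removed, and on leaving out 1 tumor they ranged from -0.1746 to 0.0660 and from -0.2157 to 0.0248, above 0 without control replicate 3. Eif2c4 ranged from -0.33 (without WDR11OE replicate 4) to 0.81. With the GC trend removed, Eif5a2 was at -0.25 and Rps6kb1 at -0.0817. The Eif4g3 share ranged from -2.18 to 0.54 percentage points on leaving out 1 tumor. The cause of these changes was not tested. No paired analysis was possible because the control labels carry no replicate numbers that the WDR11OE labels share.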

Other observations

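Levels per kb of exon ordered the members. In controls, Eif5a (276 CPM per kb) was above Eif4b (226) and Eif3h (208), and in WDR11OE tumors Eif3e (308 ± 41.2, SD, n = 4) lay above Eif4a1 (236) and Eif4b (210). This order depends on exon lengths that join all annotated transcripts (4334 bases for Eif4a1), and reads placed in Eif4a-ps4 are not counted for Eif4a1. In CPM not scaled by length, the order in controls was Eif4g2 (1002), Eif4b (871) and Eif4a1 (772). Eif3e and Eif3m, which passed as higher, encode subunits of the PCI type, whereas Eif3f, which passed as lower, encodes an MPN subunit. The other MPN subunit, Eif3h, did not pass (log2 fold change -0.17, adjusted p = 0.536 from edgeR), nor did the PCI subunits Eif3a, Eif3c, Eif3k and Eif3l.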
